A study of Arabidopsis thaliana with 8 samples.

Results

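A total of 54 probe sets separated leaves of salt-treated Arabidopsis thaliana from leaves of untreated plants on every array, out of 22746 probe sets measured without the array controls. They were chosen by their values. On each of them the 4 arrays at 100 mM NaCl all lay above, or all below, the 4 arrays at 0 mM, with a gap of more than 0.75 log2 units between the nearest arrays of the 2 salt levels. Of the 54, 32 lay higher and 22 lower with salt. A further 2 probe sets that met the gap were left out of the choice. Because the salt difference chose the members, it is given below as a description without a test. The tests concern the differences between the 2 plant lines. The rule did not choose on these, but it read the same 8 values, so the tests are not fully independent of the choice.

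The study measured leaf RNA on 8 Affymetrix arrays, with 2 replicates in each of 4 groups. Col 0 mM and Col 100 mM were wild type plants of the accession Col without added salt and with 100 mM NaCl. M6PR 0 mM and M6PR 100 mM were transgenic plants, called mannitol-producing and salt-tolerant in the series title, under the same conditions. M6PR is mannose-6-phosphate reductase, an enzyme of mannitol synthesis in celery. In all groups the leaves came from at least 15 seedlings, 20 days after sowing and 6 days after the salt treatment began. The day length was 10 h, and NaCl was raised by 50 mM every 2 days from day 14. The transgene's promoter and the number of independent transgenic lines are not given in the sources used here. The sample descriptions of the M6PR arrays name the accession Ws, so an accession difference and the transgene cannot be told apart in any comparison of the lines. The labels give the data of the Col arrays as identical to those of other deposited samples, so a difference in how they were processed cannot be told apart from the line either.

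Salt reaches leaf cells both as an osmotic and as an ionic stress. Water shortage raises abscisic acid, a hormone that closes stomata and switches on protective genes. Among these are late embryogenesis abundant (LEA) proteins and dehydrins, hydrophilic proteins that protect membranes and other proteins in drying cells. Plants under salt also reduce growth and alter defence against microbes, in which chitinases, lectins, defensins and receptor-like kinases take part.

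All values are log2 intensities as deposited, 1 per probe set and array, and pairs of values are given as replicate 1 and replicate 2. Array medians ran from 5.01 to 5.31, and 27.9% to 29.2% of probe sets lay within 0.01 of the shared lowest value of 2.15. A log2 level of 4 was taken as background, and where the dimmer group mean lay below it the fold is a lower bound against that level. Precision is limited by the number of arrays, and in whole leaves fewer cells of a type and less RNA per cell cannot be told apart. The M6PR 100 mM arrays correlated with each other at r = 0.982 across probe sets. Replicate 1 correlated more closely with M6PR 0 mM replicate 1 (0.983), and replicate 2 with M6PR 0 mM replicate 2 (0.988) and Col 100 mM replicate 2 (0.991). The Col 100 mM arrays correlated with each other at 0.984, less than replicate 2 did with M6PR 100 mM replicate 2. M6PR 100 mM replicate 1 correlated at 0.981 with both Col 0 mM arrays, and at 0.953 and 0.973 with the Col 100 mM arrays. The number of members rested most on M6PR 100 mM replicate 1. Without this array 636 probe sets met the gap, 535 higher and 101 lower with salt. All 54 members were among them, which the rule fixes, as omitting an array cannot narrow a gap. Without any other single array between 59 and 110 did, the highest of these being the count without M6PR 0 mM replicate 2. M6PR 100 mM replicate 1 was the salted array nearest the unsalted ones on 23 of the 32 members higher with salt and on 8 of the 22 lower with salt. The median shift of the 32 from their unsalted mean was 3.12 and 2.95 on the Col 100 mM arrays and 1.80 and 2.46 on the M6PR 100 mM arrays. For the 22 lower with salt it was −1.89 and −1.90 in Col and −1.59 and −1.60 in M6PR. The rule found 0.149% of all probe sets higher with salt and 0.0967% lower, the 2 that were left out included. The mean level over the 8 arrays was below 4 for 43.5% of all probe sets and 0% of the members. Shares of all probe sets given below therefore include many near the lowest value. Gene names were listed for 25 members with a single gene each, 12 higher and 13 lower with salt. One member had several genes and 28 had none listed, and these are given by probe set.

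**Figure D1:**
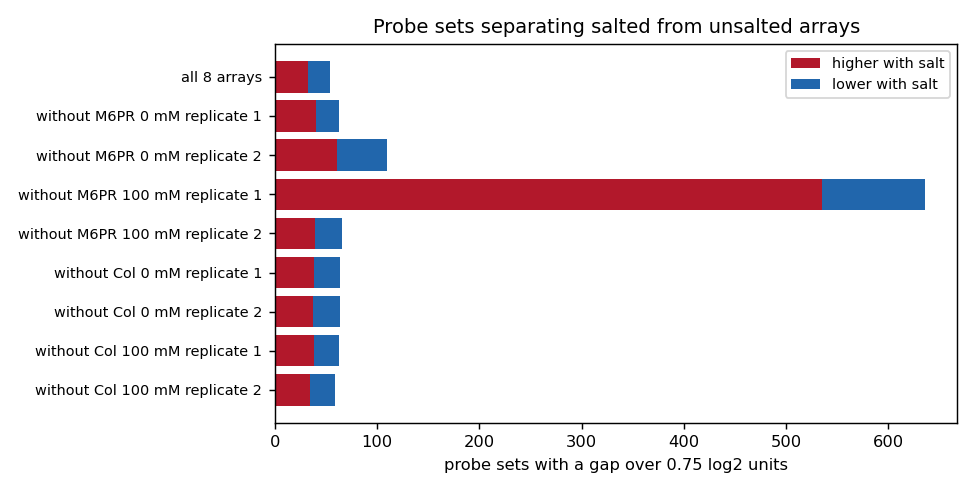
Number of probe sets with a gap of more than 0.75 log2 units between salted and unsalted arrays, for all 8 arrays and without each array in turn (bars, stacked by direction). The count is 54 with all arrays and 636 without M6PR 100 mM replicate 1.

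The probe set with the widest gap, 3.51 log2 units, was that of AT2G37870, a small protein of the lipid transfer and protease inhibitor family. It read 4.23 and 4.99 in Col 0 mM, 4.83 and 4.35 in M6PR 0 mM, 8.64 and 9.52 in Col 100 mM, and 8.49 and 8.61 in M6PR 100 mM. All salted arrays lay far above the unsalted ones, with Col 100 mM replicate 2 the highest, and the salt difference was 4.47 in Col (22.2-fold) and 3.96 in M6PR (15.6-fold). AT3G53980, a second member of the same protein family, read 2.72 and 3.51 in Col 0 mM, 3.32 and 2.92 in M6PR 0 mM, 7.43 and 7.20 in Col 100 mM, and 5.66 and 5.81 in M6PR 100 mM. Its unsalted arrays were all below background, and the salt difference was 4.201 in Col (at least 9.97-fold) and 2.62 in M6PR (at least 3.34-fold).

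Both LEA-type genes with a name of their own among the members lay higher with salt. The dehydrin gene LTI30 read 5.54 and 5.06 in Col 0 mM, 7.42 and 8.24 in M6PR 0 mM, 10.45 and 11.43 in Col 100 mM, and 9.05 and 10.51 in M6PR 100 mM. Its unsalted M6PR arrays lay above the unsalted Col arrays, and the salt difference was 5.64 in Col (49.8-fold) and 1.95 in M6PR (3.85-fold). LEA4-5, a group 4 LEA protein, read 4.68 and 4.56 in Col 0 mM, 3.93 and 3.84 in M6PR 0 mM, 7.42 and 8.55 in Col 100 mM, and 5.58 and 6.75 in M6PR 100 mM. The salted Col arrays lay above the salted M6PR arrays, with a salt difference of 3.36 in Col (10.3-fold) and 2.28 in M6PR (at least 4.48-fold).

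In hormone transport and transcription, 2 members are known. AT5G52050, or DTX50, is a membrane transporter that carries abscisic acid out of cells. It read 5.002 and 4.53 in Col 0 mM, 4.996 and 6.47 in M6PR 0 mM, 8.66 and 9.78 in Col 100 mM, and 8.63 and 8.53 in M6PR 100 mM, with M6PR 0 mM replicate 2 above the other unsalted arrays. The salt difference was 4.45 in Col (21.9-fold) and 2.84 in M6PR (7.17-fold). WRKY53, a transcription factor of leaf senescence and defence, read 5.05 and 4.95 in Col 0 mM, 5.20 and 5.12 in M6PR 0 mM, 8.33 and 8.65 in Col 100 mM, and 6.46 and 6.93 in M6PR 100 mM. The unsalted arrays of both lines lay within a narrow range, while the salted Col arrays lay clearly above the salted M6PR arrays. The salt difference was 3.49 in Col (11.3-fold) and 1.53 in M6PR (2.9-fold).

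Among the other named members higher with salt, AT1G04770, a relative of the sulphur deficiency gene SDI1, read 8.08 and 7.85 in Col 0 mM, 6.07 and 7.19 in M6PR 0 mM, 10.13 and 10.08 in Col 100 mM, and 10.97 and 10.00 in M6PR 100 mM. It was one of 2 members higher with salt whose difference was larger in M6PR, with 2.14 in Col (4.41-fold) and 3.86 in M6PR (14.5-fold). AT1G72920, a protein with a TIR domain of the kind found in immune receptors, read 5.24 and 5.42 in Col 0 mM, 5.39 and 5.27 in M6PR 0 mM, 7.60 and 7.20 in Col 100 mM, and 6.68 and 6.90 in M6PR 100 mM. SIS, whose name stands for salt induced serine rich, read 6.59 and 6.10 in Col 0 mM, 6.70 and 6.40 in M6PR 0 mM, 7.76 and 9.21 in Col 100 mM, and 7.65 and 7.70 in M6PR 100 mM, with Col 100 mM replicate 2 above the other salted arrays. AT4G17610, of the tRNA and rRNA methyltransferase family, read 4.72 and 4.77 in Col 0 mM, 4.88 and 4.89 in M6PR 0 mM, 6.75 and 6.30 in Col 100 mM, and 5.72 and 6.50 in M6PR 100 mM. The unsalted arrays of these last 3 genes lay close together. AT3G23170 read 4.998 and 5.27 in Col 0 mM, 5.05 and 5.35 in M6PR 0 mM, 6.89 and 7.10 in Col 100 mM, and 6.81 and 6.38 in M6PR 100 mM. AT5G05250 read 5.49 and 5.22 in Col 0 mM, 4.61 and 5.05 in M6PR 0 mM, 7.91 and 7.55 in Col 100 mM, and 6.30 and 8.02 in M6PR 100 mM, and its salted M6PR replicates differed by more than the salted Col replicates. The salt differences of AT1G72920, SIS, AT4G17610, AT3G23170 and AT5G05250 ran from 1.78 to 2.37 in Col and from 1.13 to 2.33 in M6PR.

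Of the 6 widest gaps higher with salt, 4 belonged to probe sets without a listed gene. Probe set 247718_at read 9.25 and 9.28 in Col 0 mM, 8.02 and 9.78 in M6PR 0 mM, 13.09 and 13.72 in Col 100 mM, and 12.42 and 13.16 in M6PR 100 mM. The unsalted M6PR replicates lay on either side of the unsalted Col arrays, and the salt difference was 4.14 in Col (17.7-fold) and 3.89 in M6PR (14.9-fold). Probe set 266415_at read 8.39 and 8.63 in Col 0 mM, 8.60 and 8.28 in M6PR 0 mM, 13.28 and 12.69 in Col 100 mM, and 10.9997 and 11.79 in M6PR 100 mM, and the salted Col arrays lay above the salted M6PR arrays. Probe set 248964_at read 3.42 and 3.96 in Col 0 mM, 7.05 and 7.08 in M6PR 0 mM, 9.80 and 9.42 in Col 100 mM, and 9.16 and 9.32 in M6PR 100 mM. Its unsalted M6PR arrays lay far above background and its unsalted Col arrays below it. Probe set 266901_at read 4.83 and 4.18 in Col 0 mM, 6.93 and 7.55 in M6PR 0 mM, 11.04 and 10.47 in Col 100 mM, and 10.11 and 9.61 in M6PR 100 mM, again with the unsalted M6PR arrays above the unsalted Col arrays. The salt differences of these last 2 were 5.92 in Col (at least 48.9-fold) and 2.17 in M6PR (4.51-fold), and 6.25 in Col (76.1-fold) and 2.62 in M6PR (6.14-fold).

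The other 16 members higher with salt had no single listed gene and gaps of 0.76 to 2.01. Their salt differences ran from 1.45 to 7.39 in Col, with a median of 3.40, and from 0.91 to 3.32 in M6PR, with a median of 1.58. The largest salt difference in Col was that of 253259_at, which read 2.34 and 2.34 in Col 0 mM, 2.50 and 2.28 in M6PR 0 mM, 10.25 and 9.20 in Col 100 mM, and 3.74 and 5.15 in M6PR 100 mM. M6PR 100 mM replicate 1 stayed below background there, and the salt difference was 7.39 in Col (at least 52.8-fold) and 2.06 in M6PR (at least 1.36-fold). Probe set 266832_at was the other member with a larger salt difference in M6PR, reading 5.55 and 5.44 in Col 0 mM, 4.79 and 4.75 in M6PR 0 mM, 7.89 and 8.09 in Col 100 mM, and 8.62 and 7.56 in M6PR 100 mM.

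**Figure D2:**
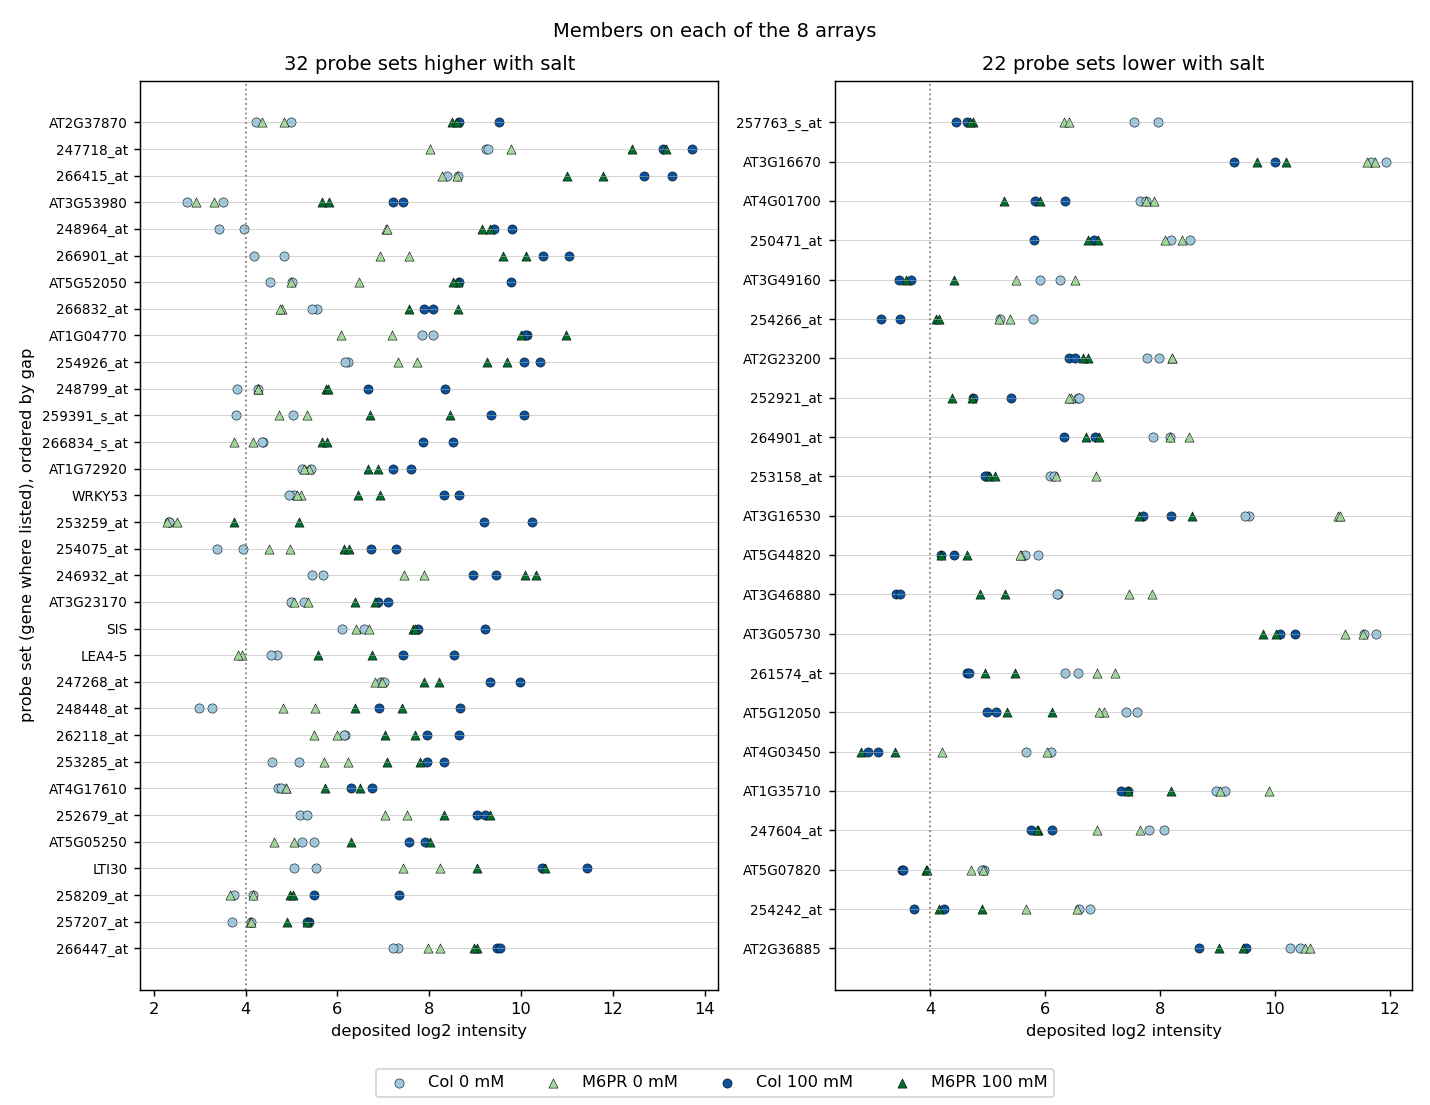
Deposited log2 intensity (x axis) of the 54 members on each of the 8 arrays, ordered by gap, with circles for Col, triangles for M6PR, pale symbols for 0 mM and dark symbols for 100 mM. The dotted line marks the background level of 4, and the salted and unsalted arrays of each member do not overlap.

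Of the 22 members lower with salt, 13 had a single listed gene. AT3G16670, of the pollen Ole e 1 allergen and extensin family, read 11.67 and 11.94 in Col 0 mM, 11.75 and 11.61 in M6PR 0 mM, 9.30 and 10.01 in Col 100 mM, and 9.69 and 10.19 in M6PR 100 mM. Its salt difference was −2.15 in Col (4.45-fold) and −1.74 in M6PR (3.34-fold). AT4G01700, of the chitinase family, read 7.66 and 7.76 in Col 0 mM, 7.90 and 7.76 in M6PR 0 mM, 6.36 and 5.82 in Col 100 mM, and 5.29 and 5.91 in M6PR 100 mM. The lowest array was M6PR 100 mM replicate 1, and the salt difference was −1.62 in Col (3.07-fold) and −2.23 in M6PR (4.69-fold). AT3G16530, a legume-type lectin, read 9.55 and 9.49 in Col 0 mM, 11.10 and 11.14 in M6PR 0 mM, 8.20 and 7.70 in Col 100 mM, and 7.63 and 8.55 in M6PR 100 mM. Its unsalted M6PR arrays lay above the unsalted Col arrays while the salted arrays of the lines overlapped, and the salt difference was −1.57 in Col (2.96-fold) and −3.03 in M6PR (8.15-fold). AT3G05730, a defensin-like protein, read 11.76 and 11.56 in Col 0 mM, 11.53 and 11.22 in M6PR 0 mM, 10.36 and 10.09 in Col 100 mM, and 9.80 and 10.02 in M6PR 100 mM, and its salt difference was −1.43 in Col (2.7-fold) and −1.47 in M6PR (2.76-fold).

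The genes of 2 kinases of the receptor type lay lower with salt. AT2G23200, of the family of the receptor kinase FERONIA, read 7.99 and 7.78 in Col 0 mM, 8.22 and 8.22 in M6PR 0 mM, 6.42 and 6.53 in Col 100 mM, and 6.75 and 6.67 in M6PR 100 mM. The replicates lay close together in every group, and the salt difference was −1.41 in Col (2.66-fold) and −1.51 in M6PR (2.84-fold). AT1G35710, a leucine-rich repeat receptor kinase, read 8.98 and 9.13 in Col 0 mM, 9.90 and 9.05 in M6PR 0 mM, 7.32 and 7.45 in Col 100 mM, and 8.20 and 7.44 in M6PR 100 mM, with M6PR 0 mM replicate 1 the highest array. Its salt difference was −1.67 in Col (3.19-fold) and −1.65 in M6PR (3.15-fold). AT5G07820, a calmodulin-binding protein, read 4.93 and 4.91 in Col 0 mM, 4.91 and 4.71 in M6PR 0 mM, 3.51 and 3.53 in Col 100 mM, and 3.94 and 3.95 in M6PR 100 mM. Its salted arrays were all below background. AT4G03450, an ankyrin repeat protein, read 5.67 and 6.10 in Col 0 mM, 6.04 and 4.21 in M6PR 0 mM, 3.10 and 2.92 in Col 100 mM, and 3.40 and 2.80 in M6PR 100 mM, and the unsalted M6PR replicates differed widely. Its salted arrays were all below background too, and the salt difference was −2.87 in Col (at least 3.7-fold) and −2.02 in M6PR (at least 2.18-fold).

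Metabolic enzymes were represented by AT3G49160, of the pyruvate kinase family, and AT5G44820, a sugar transferase. AT3G49160 read 6.27 and 5.91 in Col 0 mM, 6.52 and 5.50 in M6PR 0 mM, 3.47 and 3.67 in Col 100 mM, and 4.42 and 3.59 in M6PR 100 mM, with a salt difference of −2.52 in Col (at least 4.26-fold) and −2.01 in M6PR (4.03-fold). AT5G44820 read 5.88 and 5.65 in Col 0 mM, 5.59 and 5.57 in M6PR 0 mM, 4.41 and 4.18 in Col 100 mM, and 4.64 and 4.199 in M6PR 100 mM. It was the only named member with a second probe set, which lay lower with salt on the same arrays with a gap of 0.61, under the limit. AT3G46880 read 6.23 and 6.22 in Col 0 mM, 7.47 and 7.86 in M6PR 0 mM, 3.41 and 3.48 in Col 100 mM, and 4.87 and 5.30 in M6PR 100 mM. Its M6PR arrays lay above the Col arrays at both salt levels, with a salt difference of −2.78 in Col (at least 4.68-fold) and −2.58 in M6PR (5.96-fold). AT5G12050 read 7.60 and 7.42 in Col 0 mM, 7.03 and 6.94 in M6PR 0 mM, 5.16 and 4.98 in Col 100 mM, and 6.13 and 5.34 in M6PR 100 mM, and AT2G36885 read 10.43 and 10.26 in Col 0 mM, 10.53 and 10.62 in M6PR 0 mM, 8.68 and 9.51 in Col 100 mM, and 9.04 and 9.44 in M6PR 100 mM. The first had the larger difference in Col (5.42-fold, against 2.38-fold in M6PR), and the second had nearly the same in both lines (2.39-fold and 2.52-fold).

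Probe set 257763_s_at had the widest gap of those lower with salt, 1.57 log2 units. It read 7.97 and 7.55 in Col 0 mM, 6.32 and 6.43 in M6PR 0 mM, 4.65 and 4.45 in Col 100 mM, and 4.75 and 4.70 in M6PR 100 mM. The unsalted Col arrays lay above the unsalted M6PR arrays, and all salted arrays lay together, and the salt difference was −3.21 in Col (9.26-fold) and −1.65 in M6PR (3.13-fold). Probe set 250471_at read 8.53 and 8.19 in Col 0 mM, 8.10 and 8.38 in M6PR 0 mM, 6.85 and 5.81 in Col 100 mM, and 6.76 and 6.92 in M6PR 100 mM, with Col 100 mM replicate 2 the lowest. Probe set 254266_at read 5.79 and 5.21 in Col 0 mM, 5.39 and 5.20 in M6PR 0 mM, 3.49 and 3.15 in Col 100 mM, and 4.11 and 4.16 in M6PR 100 mM, with the salted Col arrays below background and the salted M6PR arrays just above it. The other 6 members lower with salt, all without a listed gene, had salt differences from −2.71 to −1.15 in Col and from −1.88 to −1.41 in M6PR.

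In the RefSeq gene order no named members were adjacent, and the nearest pair, AT3G16530 and AT3G16670, had 15 protein-coding genes between them. Near the limit of 0.75, the members with the smallest gaps were 266447_at (0.757) and AT2G36885 (0.758). The probe sets just outside were AT1G16850 (0.744) and 247717_at (0.733), both higher with salt.

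Among members higher with salt the response was mostly larger in Col than in M6PR. The median salt difference of the 32 was 3.48 in Col and 1.85 in M6PR, and 30 of them (93.8%) had the larger difference in Col. Over all probe sets 54.7% had the larger difference in Col, and the median salt difference was 0 in both lines. Probe sets with equal differences in both lines, as at the lowest value on all arrays, were not counted as larger in Col. The remaining share is therefore not that of probe sets with the larger difference in M6PR. Without any one array the count of members stayed between 28 and 30 (51.2% to 55.7% of all probe sets). Without M6PR 100 mM replicate 1 it was 28, with an M6PR median of 2.14. With arrays centred on their medians the count was 29, but the share of all probe sets was 81.5%. The 22 members lower with salt had medians of −1.73 in Col and −1.54 in M6PR, and 13 of them (59.1%) had the larger difference in Col. Whether the members higher and lower with salt differ in this was not tested.

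**Figure D3:**
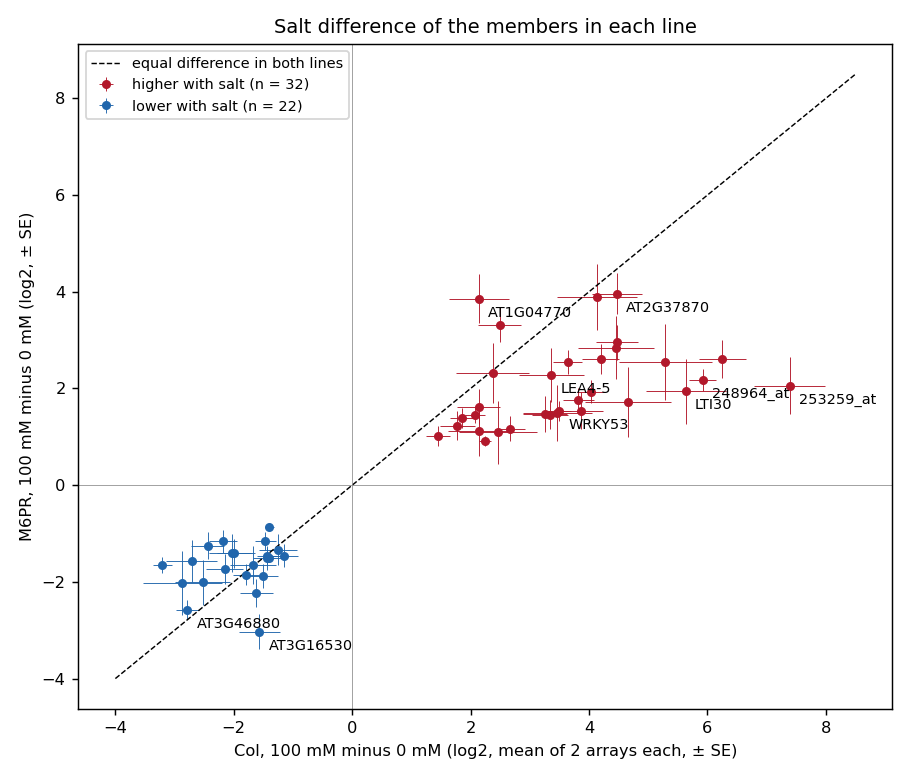
Salt difference of each member in Col (x axis) and in M6PR (y axis), in log2 units, as differences of means of 2 arrays with the standard error of the linear model (bars). Most members higher with salt lie below the dashed line of equal difference, and the members lower with salt lie on both sides of it.

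With salt, the 2 lines were compared on the 4 salted arrays. On 22 of the 32 members higher with salt (68.8%) both M6PR arrays lay below both Col arrays, as they did on 19.1% of all probe sets. After quantile normalization the count was 20 (17.1% of all probe sets), and with arrays centred on their medians it was 17 (10.6%). The reverse order was found on 1 of the 32, 246932_at, and on 15.4% of all probe sets. The median difference of M6PR from Col was −0.79 over the 32 members and 0 over all probe sets. In the limma fit, however, 0 of the 54 members were called at an adjusted p under 0.05 (0.136% of all probe sets were), and 17 had an unadjusted p under 0.05 (13% of all probe sets did). The smallest adjusted p-values belonged to 266834_s_at, a probe set of several genes, at −2.48 ± 0.26 (SE) and adjusted p = 0.0906, and to WRKY53 at −1.80 ± 0.20 (SE) and adjusted p = 0.0978. Omitting Col 100 mM replicate 2 gave 4 calls, all lower in M6PR (5.33% of all probe sets were then called), and omitting M6PR 100 mM replicate 2 gave 3, of which 1 was higher and 2 lower (4.46% of all probe sets), while the count was 0 without any other single array. Of the 22 members lower with salt, M6PR lay above Col without overlap on 8 (36.4%) and below on 2 (9.09%).

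Without salt, 6 of the 54 members differed between the lines (limma, adjusted p under 0.05), a share of 11.1% against 7.03% of all probe sets. They were 5 higher in M6PR (3.97% of all probe sets were) and 1 lower (3.06%), and 15 members had an unadjusted p under 0.05 (19.7% of all probe sets did). Members higher with salt that were already higher in unsalted M6PR were 248964_at (3.37 ± 0.23 (SE), at least 8.37-fold, adjusted p = 0.00805), 266901_at (2.73 ± 0.39 (SE), 6.65-fold, adjusted p = 0.0319), 246932_at (2.103 ± 0.25 (SE), 4.3-fold, adjusted p = 0.0214) and 266447_at (0.84 ± 0.10 (SE), 1.79-fold, adjusted p = 0.0215). Of members lower with salt, AT3G46880 was higher in unsalted M6PR (1.44 ± 0.20 (SE), 2.71-fold, adjusted p = 0.029) and 257763_s_at was lower (−1.38 ± 0.16 (SE), 2.61-fold, adjusted p = 0.0204). LTI30 was 2.53 ± 0.67 (SE) higher in unsalted M6PR but missed the threshold (adjusted p = 0.128). The unsalted M6PR arrays lay above the unsalted Col arrays without overlap on 12 of the 32 members higher with salt (37.5%, against 18.1% of all probe sets) and below on 6 (18.8%, against 26%). Of the 22 members lower with salt they lay above on 8 (36.4%) and below on 7 (31.8%). For 248964_at, 266901_at, 246932_at, 266447_at and LTI30 the unsalted M6PR level lay between the unsalted and salted Col levels. The gap rule fixes this for every member higher with salt whose unsalted M6PR level exceeds that of Col, so it is not particular to them. The call of 248964_at held without any one array, while the calls of the other 5 were each lost without at least 1 array, with adjusted p up to 0.131. The count fell without any one Col array or either M6PR 0 mM array, as did the share of all probe sets called. The count was 10 after centring on array medians (9.65% of all probe sets) and 3 with only the 4 unsalted arrays in the fit (5.79%). Without the dimmest 25% of probe sets 9 members were called, against 13.8% of the probe sets left. Of all probe sets 43.5% had a mean level below 4, against 0% of the members. The 11.1% and 7.03% are therefore not shares of like probe sets.

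**Figure D4:**
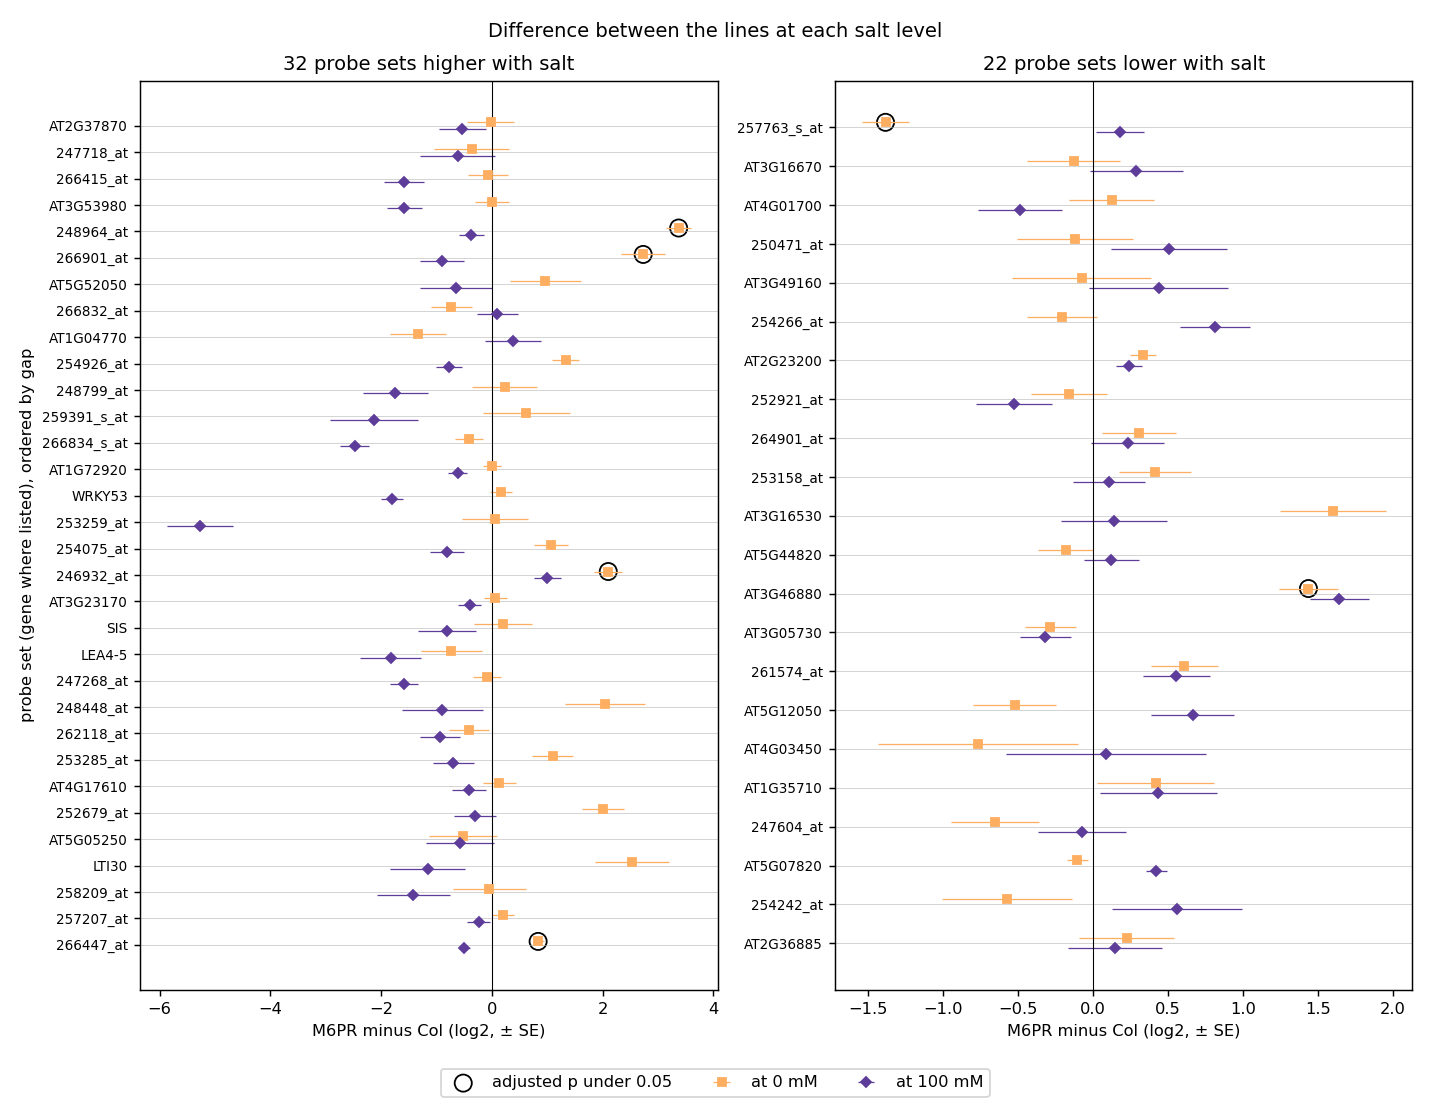
Difference of M6PR from Col for each member at 0 mM (squares) and at 100 mM (diamonds), in log2 units with standard errors, on separate x scales for the 2 directions. Circles mark the 6 differences with an adjusted p under 0.05, all at 0 mM, and most diamonds of the members higher with salt lie left of 0.

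Averaged over both salt levels, 4 of 54 members (7.41%) differed between the lines, against 4.34% of all probe sets. AT3G46880 (1.54 ± 0.14 (SE), adjusted p = 0.0184), 246932_at (1.55 ± 0.18 (SE), adjusted p = 0.0268) and 248964_at (1.50 ± 0.16 (SE), adjusted p = 0.0246) were higher in M6PR, and 266834_s_at (−1.44 ± 0.18 (SE), adjusted p = 0.0336) was lower. Each of these limma calls was lost without at least 1 array, and leaving out any array but Col 100 mM replicate 2 ended 2 or 3 of them (adjusted p up to 0.109). Leaving out single arrays moved the number of members called in both directions, and likewise the share of all probe sets called.

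The size of the salt response depended on the line for 2 of the 54 members (3.70%; interaction test in limma, 1.45% of all probe sets), both of them higher with salt and with a smaller difference in M6PR. These were 248964_at (−3.75 ± 0.32 (SE), adjusted p = 0.0292) and 266447_at (−1.34 ± 0.14 (SE), adjusted p = 0.0406). Both calls were lost without M6PR 100 mM replicate 1 (adjusted p of 0.0646 and 0.081), that of 248964_at without either M6PR 0 mM array (up to 0.0897), and that of 266447_at without any one Col array (up to 0.0799). Omitting M6PR 100 mM replicate 1 left 0 calls, omitting Col 0 mM replicate 1 or Col 100 mM replicate 1 left 1, and omitting Col 100 mM replicate 2 or M6PR 100 mM replicate 2 raised the count to 4 or 7. In these last fits the share of all probe sets called rose too, to 4.97% and 9.82%. At an unadjusted p under 0.05 the interaction was found on 21 of the 54 members, 16 of the 32 higher and 5 of the 22 lower with salt, against 18.3% of all probe sets. WRKY53 (−1.96 ± 0.28 (SE), adjusted p = 0.0634) and LTI30 (−3.69 ± 0.95 (SE), adjusted p = 0.158) missed the threshold.

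Related genes from lists of salt and stress pathways were examined in the average salt difference of both lines, in which limma called 2.73% of all probe sets, 1.07% higher and 1.66% lower with salt. A single-gene probe set was found for 34 of the 202 listed genes. Of 5 measured dehydration, cold and abscisic acid responsive genes, LTI30 and LEA4-5 are members. The other 3 were not called, with 0.49 for COR47 (adjusted p = 0.495), 1.1 for COR15A (0.0840) and 1.57 for COR15B (0.208) against a median of 0 over all probe sets. Of the rapid stress transcription factors with a probe set, WRKY53 is a member, the zinc finger gene STZ rose (3.74, adjusted p = 0.0216) and TINY2, of the DREB family, fell (−1.58, adjusted p = 0.0467), with means from 5.99 to 2.53 in Col and below background in M6PR. STZ did not meet the gap, as its unsalted M6PR mean of 9.71 lay near its salted mean of 10.53, with 4.87 and 11.52 in Col. Both STZ and TINY2 were called in the interaction test in limma (adjusted p = 0.0410 and 0.0441). Their salt differences were 6.65 and −3.47 in Col, against 0.83 and 0.30 in M6PR, so the averages are not changes shared by the lines.

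Of 5 light reaction and carbon fixation genes 0 rose and 1 fell, LHCB4.3 of the light-harvesting antenna (−1.18, adjusted p = 0.0263), with a list median of −0.32. Of 8 cell wall loosening genes 1 rose, EXLA1 (2.69, adjusted p = 0.0424), and the list median was 0.94. The EXLA1 means went opposite ways in the lines, from 2.87 to 9.69 in Col and from 11.94 to 10.51 in M6PR. The means of EXLA2, EXO and EXLA3 also rose in Col and fell in M6PR, those of EXLA3 below background. EXPA4 and EXPA8 went the reverse way, and only EXPA15 and XTH19 rose in both lines. In the interaction test in limma EXLA1 was called (adjusted p = 0.0288) and the others were not, EXO with adjusted p = 0.0551. The list median is therefore not a rise shared by the lines. Of 2 antioxidant enzymes, the thylakoid ascorbate peroxidase TAPX fell (−0.71, adjusted p = 0.0202). None of 5 flavonoid genes, 2 compatible solute genes, 1 jasmonate gene (PDF1.2, −3.19 ± 1.28 (SE), adjusted p = 0.257) and 1 senescence gene was called, and of these SDH (−0.52, unadjusted p = 0.00422) and SAG101 (−0.43, unadjusted p = 0.0138) had an unadjusted p under 0.05. The average over lines hides opposite signs in the flavonoid genes: the means of all 5 lay lower with salt in Col and higher with salt in M6PR, as for UGT75C1 (−3.02 and 3.32) and UF3GT (−1.99 and 3.02), enzymes that attach sugars to anthocyanins. None of the 5 was called in the interaction test in limma (adjusted p from 0.0818 to 0.389). For 5MAT both M6PR means lay below background, and only replicate 1 rose with salt. The calls of STZ, TINY2, LHCB4.3, EXLA1 and TAPX were each lost without at least 1 array, all 5 of them without M6PR 0 mM replicate 1 (adjusted p from 0.0573 to 0.144), and all but TAPX without M6PR 0 mM replicate 2 or Col 0 mM replicate 1. Omitting Col 0 mM replicate 2 ended the calls of TINY2, LHCB4.3 and EXLA1, and omitting either Col 100 mM array those of TINY2 and EXLA1. The 620 probe sets called became 311 when M6PR 0 mM replicate 1 was omitted, and 1673, 1623 and 1072 when M6PR 100 mM replicate 1, Col 100 mM replicate 2 and M6PR 100 mM replicate 2 were. Lists of abscisic acid synthesis, ion transport and salicylic acid defence had no probe set with a single listed gene and were not analysed here.

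Of the leaf markers, Rubisco activase (RCA) was measured and lay between 14.52 and 14.82 on all arrays. Of the root markers, EXPA7 lay between 2.15 and 2.37. PYK10, a beta-glucosidase abundant in roots, was at 2.15 to 2.82 on the unsalted arrays, at 10.28 and 7.51 in Col 100 mM and at 2.83 and 6.27 in M6PR 100 mM, and was not called (adjusted p = 0.122). Its part in the members' salt differences was not tested.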

How the data were processed

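Arrays were grouped by their sample titles. The authors deposited 1 log2 intensity per probe set and array. Per the submitters' processing notes, GCOS and RMA were used, with no version given. Which arrays the authors normalized together is not given in the sources used here. The labels speak of biological replicates from replicate pots. The 64 array controls were left out. Gene names came from the array's annotation table (13513 probe sets with 1 gene, 503 with several, 8730 with none listed), and 13436 were matched to RefSeq TAIR10.1 for names. A linear model with 1 mean per group was fitted to all 22746 probe sets with limma 3.58.1 in R 4.3.3 (4 residual degrees of freedom, prior 0.409), and p-values were two-sided and adjusted by Benjamini-Hochberg over all probe sets. The fit was tested on simulated data. The members and gene lists were chosen with earlier results of these data known. The rule for named genes gave all members with a single gene, the 6 widest gaps per direction, the 2 probe sets nearest the limit on either side, and list genes that were members or were called. The markers and further list genes were named after their values were seen. No sequences are shown. Alternatives were other gaps, quantile normalization, median centring, dropping the dimmest 25% of probe sets, a variance trend with robust prior, a replicate block, fewer arrays in the fit, and leaving out each array.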

Additional observations from a re-analysis of the deposited data

Results flagged for a closer look

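The salt response of 2 members differed between Col and M6PR by the interaction test in limma. Probe set 248964_at had an interaction of −3.75 (adjusted p = 0.0292), with a salt difference of 5.92 in Col and 2.17 in M6PR. Probe set 266447_at had an interaction of −1.34 (adjusted p = 0.0406), with 2.25 in Col and 0.91 in M6PR. On both, M6PR lay above Col on every array at 0 mM and below it on every array at 100 mM.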

How the results depend on the processing

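The number of members was 107 with a gap over 0.5, 27 with a gap over 1, 53 after quantile normalization (49 of the 54 among them) and 50 after centring (47 of the 54), and from 59 to 636 without single arrays. After centring, limma called 10 members at 0 mM, 4 at 100 mM (1 higher and 3 lower in M6PR), 9 in the average line difference and 8 in the interaction, where it moved the median of all probe sets by 0.20 log2 units, and 2080 probe sets in the average salt difference. The shares of all probe sets called after centring were 9.65%, 0.611%, 7.2% and 4.49% for the lines at 0 mM, at 100 mM, on average and the interaction. Without the dimmest 25% of probe sets these counts were 9, 3, 8, 8 and 1460, with 13.8%, 0.41%, 9.78% and 6.01% of all probe sets called in the line and interaction tests. With only the 4 unsalted arrays in the fit 3 members were called at 0 mM. Leaving out single arrays gave 2 to 8 members at 0 mM, 0 to 4 at 100 mM, 1 to 6 in the average line difference, 0 to 7 in the interaction and 311 to 1673 probe sets in the average salt difference (620 with all arrays). Without single arrays the counts of members higher with salt ranged from 28 to 30 for the larger difference in Col, 22 to 28 for M6PR below Col at 100 mM and 12 to 17 for M6PR above Col at 0 mM. The shares of all probe sets ranged from 51.2% to 55.7%, 19.1% to 31.1% and 18.1% to 26.7% in the same order. With fewer arrays there are fewer values that can overlap. With the replicate block 5 members were called at 0 mM (4.26% of all probe sets were) and 0 at 100 mM (0.0132%). It called 1 in the average line difference (1.82%), 0 in the interaction (0.233%) and 210 probe sets in the average salt difference. It ended both interaction calls (adjusted p of 0.0794 for 248964_at and 0.0948 for 266447_at). Same-numbered arrays deviated together between M6PR 0 mM and M6PR 100 mM (r = 0.49) but not over the other 5 pairs of groups (−0.15 to 0.08). The numbers were therefore not taken to pair the arrays of all groups. The main fit did not allow for the deviation shared by same-numbered M6PR arrays. Its standard errors for the average line difference may therefore be too small. The crossed pairing of Col 100 mM, added after the data were seen, called 0 members at 100 mM (0.0132% of all probe sets). For dropping dim probe sets and for leaving out arrays, fewer probe sets or arrays entered the fit. The cause of the changes was not tested for any setting. The members' own average salt differences were followed under quantile normalization, median centring and the omission of each array. Of these 540 values 528 moved by less than the standard error of the linear model, and none changed sign. For an omitted array neither is a check. The gap rule fixes the sign there, and the standard error comes from the same replicate differences as the move. Probe sets near the lowest value cannot show a decrease.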
